A study of Homo sapiens with 238 samples.

Results

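The cytosolic ribosomal protein genes encode the proteins of the large (RPL) and small (RPS) subunits of the ribosome that translates messages of the nucleus. Members were taken by gene symbol and biotype alone, as protein-coding genes named RPL or RPS with a number and, where present, a letter A, X or L, together with RPLP0, RPLP1, RPLP2 and RPSA. This gave 84 members of the 62696 genes in the count files, 52 of the large subunit and 32 of the small subunit. The members are spread over 21 chromosomes, with 12 on chromosome 19, 9 on chromosome 3, 4 on the X chromosome and 4 on chromosome 16. Other genes such as RACK1, FAU and RPL36AL also encode ribosomal parts, but they fall outside the naming rule and are given only for comparison.

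Each ribosome carries a single copy of nearly every protein, apart from the acidic stalk proteins, so the genes are transcribed together and strongly in growing cells. Their messages start with a C followed by a run of pyrimidines, the 5' terminal oligopyrimidine (TOP) motif, through which the mTOR pathway and LARP1 set their translation. A few members have paralogs of narrower use, such as RPL3L in muscle and RPL10L and RPL39L in testis. In the erythroid lineage these genes are known for Diamond-Blackfan anemia, in which loss of 1 copy of a member such as RPS19 impairs the making of red blood cells.

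Polyadenylated RNA was sequenced in 62 libraries of K562, a human myelogenous leukemia line with erythroid features. The α series comprised unedited αWT cells (8 libraries), clones homozygous for G4 mutations in the α-globin enhancer HS-40 (αMut1, 7 libraries, and αMut2, 4 libraries), and clones made from αMut1 by inserting a MYC G4 into the mutated HS-40 (αRes1 and αRes2, 8 libraries each, and αRes3 and αRes4, 4 libraries each). The β series comprised unedited βWT cells and clones homozygous for G4 mutations in the β-globin enhancer HS2 (βMut1 and βMut2), with 4 libraries each. It also held cells with the enhancer HS3 deleted (WT-HS3Δ, 4 libraries). Cells with both the HS2 G4 mutation and the HS3 deletion (βMut-HS3Δ, 3 libraries) are named after βMut1 in the sample titles. Each edited line is labelled as a single clone, and replicates are libraries of that line, so p-values compare clones and not edits, and what a clone carries besides its edit cannot be told apart from the edit.

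No edit lies in a member, so no member's count checks an edit. Depth ranged from 4270215 to 48671570 counts per library. The shallowest library was αRes2 replicate 3. All 8 erythroid markers (among them GATA1, TAL1, KLF1, HBG1, HBG2, EPOR and TFRC) were detected in every library, with a summed level of 1747 to 3134 CPM (a count divided by the scaled total of its library, on 1 TMM scale for all 62 libraries), and 8 lymphoid and macrophage markers summed to 0.569 to 4.58 CPM, with MS4A1 at 0 in 59 libraries and CD8A at 0 in 58. Pseudoautosomal genes had at most 1 read in 46 libraries and at least 7225 in the other 16, which are αRes3, αRes4 and replicates 5 to 8 of αRes1 and αRes2, and the cause was not tested. No member is pseudoautosomal.

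Libraries of αMut1 and αRes1 stood apart by replicate number. Over all 18247 genes tested in the α series, the root mean square difference in mean log2 CPM between numbers 1 to 4 and 5 to 8 was 0.42 in αWT, 0.44 in αRes2, 0.60 in αMut1 and 0.78 in αRes1. The αMut1 libraries 5 to 7 lay nearest to αRes1 1 to 4, at 0.41, and αRes1 5 to 8 lay nearest to αMut1 1 to 4, at 0.49. RPL10, a large subunit protein encoded on the X chromosome, shows it, with 179.9 to 216 CPM in αMut1 1 to 4 and 281 to 317 in 5 to 7, and with 316 to 370.4 in αRes1 1 to 4 and 192 to 234 in 5 to 8. The 97 other tested genes within 5 Mb of it differed from αWT of the same numbers by medians of -0.78 and 0.01 in αMut1 and 0.03 and -0.85 in αRes1. The labels were kept, and counts of members that passed in comparisons with these lines are also given within the numbers, each set fitted alone. Counts over other gene lists were made over all numbers only. Whether the libraries of 1 label hold different cells was not tested.

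The starts of the messages are shown for a few members of the results below, 10 bases before and 20 bases from the RefSeq start (GRCh38.p14) on the strand of the gene, with the pyrimidine run from the start base in capitals where it makes up a C and at least 4 further bases of C or T. RPS12, RPS27, RPL26 and RPL22L1 have such a start, and RPS27L, RPL26L1, RPL7L1 and RPS4X do not.
RPS12, chr6:132814559-132814588, plus strand: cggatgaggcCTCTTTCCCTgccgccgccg
RPS27, chr1:153990752-153990781, plus strand: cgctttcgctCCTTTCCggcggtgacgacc
RPS27L, chr15:63157458-63157487, minus strand: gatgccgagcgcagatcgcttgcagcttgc
RPL26, chr17:8383174-8383203, minus strand: gcgtgtagttCTCTTCCCTTTTgcggccat
RPL26L1, chr5:172958719-172958748, plus strand: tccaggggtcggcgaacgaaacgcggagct
RPL22L1, chr3:170870176-170870205, minus strand: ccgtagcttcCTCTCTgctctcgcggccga
RPL7L1, chr6:42879606-42879635, plus strand: gtgcggcgccgtagctaggagcggacgcca
RPS4X, chrX:72277229-72277258, minus strand: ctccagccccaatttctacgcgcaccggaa

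Of the 67 members with a RefSeq promoter window, 47 (70.1%) had such a start in at least 1 window, against 1357 of 27238 other genes (4.98%). Of the 5 paralogs with a window, RPL22L1 had it, and RPS27L, RPL26L1, RPL7L1 and RPL10L did not. Within the 300 bases around the start, on either strand, CCGGAAG was found in 35.8% of the members with a window and in 12.1% of other genes, GATGGC in 34.3% and 15.4%, GGGCGG in 58.2% and 48.3%, CTTTCC in 46.3% and 30.2%, and TATAAA in 10.4% and 14%. These are matches of letters, not sites. For the members with a pyrimidine start and the 19 tested members without one, the median log2 fold changes were 0.43 and 0.41 in βMut1 and 0.46 and 0.48 in βMut2 against βWT, and 0.27 and 0.26 in αRes2 and 0.20 and 0.14 in αRes4 against αWT. They lay farthest apart in βMut-HS3Δ against βWT, at 0.18 and 0.34.

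Members were counted at very different levels. Per kilobase of merged exon, RPL8 at 436 CPM and RPS12 at 360.4 were among the highest in αWT, and the lowest of those tested were RPS10 at 2.87, RPL36A at 4.19 and RPS27L at 5.36. The median of the tested members was 61.2 CPM per kilobase in αWT and 87.8 in βWT. RPL10L and RPL3L, the testis and muscle paralogs of RPL10 and RPL3, stayed under the limit of a mean of 10 counts per library and were not tested. RPL10L had 0 counts in 46 of 62 libraries and RPL3L in 15 of 62. RPL10L reached 36 counts over the 7 αMut1 libraries and 2 counts over the 8 αWT libraries, and RPL3L reached 12 and 45, levels too low to compare. In αMut1, RPL10L had 0.299 to 0.372 CPM in replicates 1 to 4 and at most 0.0319 in 5 to 7.

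Reads were also counted in pseudogenes of the members. The members have 1599 annotated pseudogenes, copies of 78 of the 84 members, and these held 33% of the reads counted in members and pseudogenes together in αWT and 30.1% in βWT. For 24 members the pseudogenes held more reads than the gene in αWT. The share was 92.7% for RPS27, 92.3% for RPL36A, 89.7% for RPL39 and 67.5% for RPS18, and it was 1.65% for RPS12 and 0.0147% for RPS16. The reads were placed with an aligner that does not split reads over introns. Whether the reads in pseudogenes came from the members was not tested, and the level of a member with a high share is uncertain. Reads of a gene and of its pseudogenes were also summed as an alternative.

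Summed over the members, the mean CPM of each β line was higher than that of each α line. As a share of all counts this did not hold throughout, with 2.8% in αRes2 and 2.78% in αRes4 against 2.77% in WT-HS3Δ. Libraries also overlapped, as αRes2 reached 32121 CPM and WT-HS3Δ started at 27927. The sum was 22483 ± 1527 CPM in αWT (SD, n = 8) and 33970.4 ± 2867 in βWT (SD, n = 4), or 2.26% and 3.27% of all counts. Every βWT library, from 29777 to 36259 CPM, lay above every αWT library, from 20716 to 25546. Within the α series the sum relative to αWT was 0.968 in αMut1, 1.02 in αMut2, 1.08 in αRes1, 1.24 in αRes2, 1.02 in αRes3 and 1.12 in αRes4. αMut1 libraries ranged from 19834 to 23132 CPM and overlapped those of αWT, and αRes2 libraries ranged from 21948 to 32121.

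Within the β series the sum was 43573 ± 5541 CPM in βMut1 (SD, n = 4) and 43760.1 ± 7099 in βMut2 (SD, n = 4), 1.28 and 1.29 times that of βWT. The 4 βMut1 libraries, with 36292, 45089, 49632 and 43279 CPM, all lay above the 4 βWT libraries, with 29777, 35026, 36259 and 34819, though the lowest of the first hardly exceeded the highest of the second. Of the 4 βMut2 libraries, with 33316, 45302, 47996 and 48426 CPM, replicate 1 lay within the βWT range. WT-HS3Δ, at 30223 ± 2341 (SD, n = 4), was 0.89 times βWT, and βMut-HS3Δ, at 37292 ± 3981 (SD, n = 3), was 1.1 times βWT. Replicate 1 had the lowest sum in each of the 5 β lines, and between replicates of equal number βMut1 was 1.22 to 1.37 times βWT and βMut2 1.12 to 1.39 times. Mitochondrial transcripts moved with the sum in part, at 11699 CPM in βWT, 16847 in βMut1, 14317 in βMut2 and 9543 in WT-HS3Δ. MALAT1 did so too, at 171, 442, 215 and 153 CPM. In βMut-HS3Δ, whose sum was above that of βWT, both were lower than in βWT, at 9965 and 138 CPM. Their part in the result was not tested.

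The HS2 G4 mutant clones were compared with βWT to ask which genes differ where HS2 has lost its G4. In βMut1, 72 of the 82 tested members passed at an adjusted p below 0.05 (edgeR's quasi-likelihood test, Benjamini-Hochberg over all genes) with higher levels than in βWT and none with lower levels, and 10 did not pass. Over all 17535 genes tested, 23.8% passed with higher and 21.0% with lower levels. The median log2 fold change was 0.43 for the members and 0.02 for all genes. Without βWT replicate 1, 42 members passed, and without βMut1 replicate 3, 29 passed, all of them higher in either case. In 26 members the log2 fold change also exceeded 0.5, the limit the study used, as in 13.0% of all genes. That count was 5 without βMut1 replicate 3, 7 without βWT replicate 1 and 38 without βMut1 replicate 1.

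The largest changes in βMut1 were those of RPL36A, RPS27, RPS27L and RPS29. RPS27 and RPS27L encode a zinc-binding protein of the small subunit and its paralog, whose gene is a target of p53. RPS27L had 67 CPM on average in βWT and 109.6 in βMut1, a log2 fold change of 0.75 ± 0.21 (SE, adjusted p = 0.00975 by edgeR). RPS27 had 8.38, 11.4, 11.2 and 10.1 CPM in βWT and 10.8, 17.6, 21.3 and 18.5 in βMut1 (0.77 ± 0.20, edgeR adjusted p = 0.00575). Replicate 1 of βMut1 lay within the βWT range and the other 3 above it.

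RPL5 and RPL11, which with 5S rRNA form a particle that binds MDM2, both passed in βMut1, with log2 fold changes of 0.39 and 0.29, though in 5 and 4 of the 8 fits that left out 1 library they did not. RPLP0, RPLP1 and RPLP2, the stalk that calls elongation factors to the ribosome, passed at 0.40, 0.37 and 0.37. Of the 19 genes mutated in Diamond-Blackfan anemia, 18 passed with higher levels, with a median of 0.47. Of all 82 tested members 72 did so, with a median of 0.43, and of all genes tested 23.8%. RPS19, the gene most often mutated in it, had 414, 463, 489 and 498 CPM in βWT and 517, 586, 628 and 579.6 in βMut1 (0.35 ± 0.10, edgeR adjusted p = 0.0129). Its groups did not overlap. RPS14, the member lost in the 5q- syndrome, had 757, 999, 1040.2 and 970.1 CPM in βWT and 981, 1345, 1533 and 1365 in βMut1 (0.51 ± 0.16, edgeR adjusted p = 0.017), with replicate 1 of βMut1 within the βWT range.

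In βMut2, 66 members passed with higher and 1 with lower levels than βWT, where 27.1% and 26.3% of all genes tested did so, and 36 also exceeded 0.5, against 15.0% of all genes. The median was 0.47 for the members and 0.00 for all genes, and the count that passed was between 52 and 74 when single libraries of either line were left out. RPS26, RPL36A and RPL22L1 were among the largest changes. RPS26, a small subunit protein beside the exit of the message, had 8.18, 10.2, 11.1 and 9.68 CPM in βWT and 18.7, 26.6, 25.7 and 24.2 in βMut2 (1.31 ± 0.14, edgeR adjusted p = 5.45e-07). Its groups did not overlap. Few of its counted reads sit in pseudogenes (3.41% in βWT), but its mean there, 9.81 CPM, was far below the tested members' median of 372. Whether reads of RPS26 went uncounted was not tested. RPL36A, a large subunit protein, had 4.21, 5.47, 5.9 and 4.78 CPM in βWT and 7.54, 13.7, 11.6 and 12.9 in βMut2 (1.19 ± 0.22, edgeR adjusted p = 0.000229), also without overlap, with 98.1% of its reads in pseudogenes in βWT.

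The member that passed with lower levels in βMut2 was RPL22, which had 120.1, 117, 113 and 112 CPM in βWT and 110.5, 103, 97.3 and 101 in βMut2 (-0.13 ± 0.05, edgeR adjusted p = 0.0469). The call was lost in 7 of the 8 fits that left out 1 library and without a filter on low counts, and with the pseudogenes of RPL22 added the change was 0.16 (edgeR adjusted p = 0.0628). Its paralog RPL22L1, whose splicing and level RPL22 is known to restrain, had 21.5, 39.7, 36.1 and 29.9 CPM in βWT and 41.3, 78.1, 74.1 and 78.4 in βMut2 (1.13 ± 0.24, edgeR adjusted p = 0.000828). No library of either gene overlapped between the lines. The ratio of RPL22L1 to RPL22 was 0.276 ± 0.0714 in βWT (SD, n = 4), 0.361 ± 0.111 in βMut1 (SD, n = 4) and 0.667 ± 0.195 in βMut2 (SD, n = 4). RPL22L1 has no annotated pseudogene, and 76.2% of the reads of RPL22 and its copies sat in the copies in βWT.

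RPL26L1 had 13.8, 18.3, 19.5 and 18.3 CPM in βWT, 18.7, 25.2, 25.3 and 25.9 in βMut1 and 26.1, 40.7, 39.2 and 40.9 in βMut2. Replicate 1 of βMut1 lay within the βWT range, and no library of βMut2 did. It passed in both clones, at 0.48 ± 0.16 and 1.10 ± 0.16 (edgeR adjusted p = 0.0223 and 2.04e-05). RPL39L, the testis paralog of RPL39, passed in βMut1 at 0.59 ± 0.15 (edgeR adjusted p = 0.00466) and not in βMut2 at 0.26 ± 0.15 (adjusted p = 0.15). RPL7L1, a nucleolar relative of RPL7, passed in neither clone, at -0.09 and -0.01. RPL7 passed in both, at 0.21 and 0.36, but in βMut1 it did not in 12 of 15 alternative fits. RPS2, RPL3 and RPS3A also passed in neither clone.

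**Figure D1:**
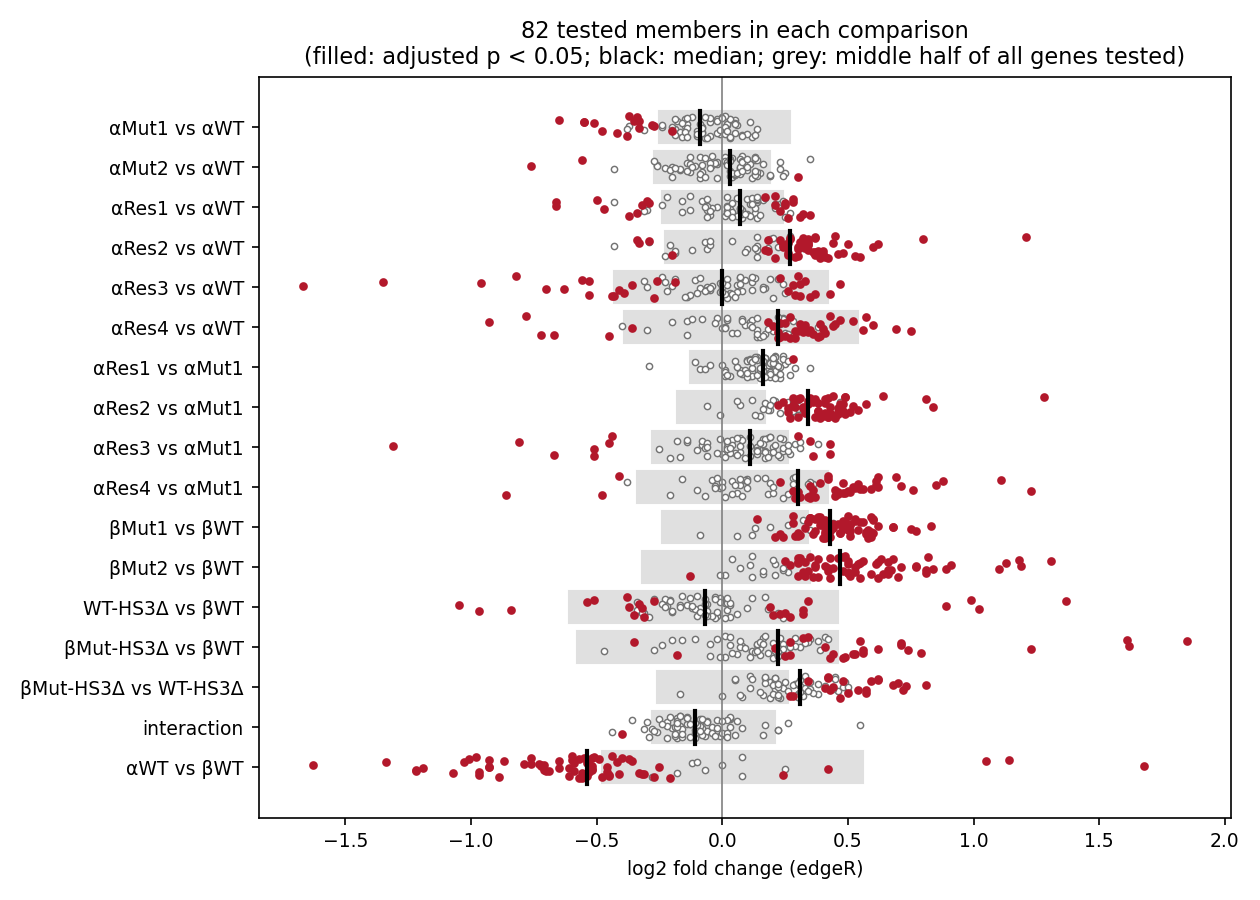
Log2 fold change (horizontal) of the 82 tested members in each of the 17 comparisons (rows). Red filled points passed at an adjusted p below 0.05, open points did not, black lines mark the members' median, and grey boxes span the middle 50% of all genes tested. The members lie to the right in both βMut clones and αRes2, with medians of 0.47, 0.43 and 0.27, and to the left in αWT against βWT, with a median of -0.54.

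Other genes of translation were set beside the members. Of all genes tested, 23.8% passed with higher and 21.0% with lower levels in βMut1, and 27.1% and 26.3% in βMut2. Of the 4 ribosomal parts outside the naming rule 3 rose in βMut1 and 3 in βMut2, with none lower, and FAU, which encodes RPS30, changed by 0.45 ± 0.12 in βMut1 (edgeR adjusted p = 0.00791). Against βWT, 9 of 10 snoRNA host genes whose messages have TOP starts passed with higher levels in βMut1 and 4 of 10 in βMut2, with medians of 0.62 and 0.34. SNHG1 changed by 0.78 ± 0.17 (edgeR adjusted p = 0.00207) in βMut1. Of 17 tested TOP messages of translation factors, 8 rose and 1 fell in βMut1, and 5 rose and 4 fell in βMut2. EEF2, elongation factor 2, fell by 0.50 on the log2 scale in βMut2 (edgeR adjusted p = 0.0014).

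Genes that build ribosomes are a separate list, read against the same shares of all genes (23.8% higher and 21.0% lower in βMut1, 27.1% and 26.3% in βMut2). Of 36 ribosome assembly factors, 4 rose and 24 fell in βMut1, with a median of -0.33, while 15 rose and 1 fell in βMut2, with a median of 0.18. NOP16, a nucleolar factor of the large subunit, fell by 0.34 on the log2 scale in βMut1 (edgeR adjusted p = 0.000327) and rose by 0.77 ± 0.06 in βMut2 (edgeR adjusted p = 7.72e-09). Of 77 tested mitochondrial ribosomal proteins, 24 rose and 6 fell in βMut1, with a median of 0.17, and 69 rose and none fell in βMut2, with a median of 0.62. Of 14 regulators of these messages 1 rose and 8 fell in βMut1, and 1 rose and 3 fell in βMut2. MYC, a transcription factor that drives both ribosomal proteins and assembly factors, fell by 0.35 on the log2 scale in βMut1 (edgeR adjusted p = 0.0122). Of 8 erythroid markers 4 rose and 1 fell in βMut1, and 3 rose and 1 fell in βMut2. The single tested lymphoid or macrophage marker fell in βMut1 and did not pass in βMut2. The difference between the clones was not tested, and both were set against the same βWT libraries.

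WT-HS3Δ was compared with βWT to ask which genes differ where HS3 is lost. In WT-HS3Δ, 12 members passed with higher and 12 with lower levels than βWT, where 33.2% and 36.2% of all genes tested did so, and the medians were -0.07 for the members and -0.03 for all genes. The counts were 8 higher and 18 lower without βWT replicate 1, and 11 and 6 without WT-HS3Δ replicate 1. Past 0.5 were 4 higher (22.8% of all genes) and 5 lower members (27.5% of all genes). RPS26 had 23.5, 24.4, 27.6 and 22.7 CPM (1.37 ± 0.14, edgeR adjusted p = 5.73e-08), above every βWT library. RPL26L1 changed by 1.02 ± 0.16 and RPL36A by 0.89 ± 0.22, both without overlap between the libraries of the lines.

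RPS3A, a small subunit protein at the exit of the message, had 127, 174, 167 and 145 CPM in βWT and 63.5, 76.4, 78.1 and 68.6 in WT-HS3Δ (-1.05 ± 0.16, edgeR adjusted p = 1.1e-05). RPS27 had 4.67, 5.18, 5.72 and 4.82 CPM in WT-HS3Δ (-0.97 ± 0.21, edgeR adjusted p = 0.000462). RPS18 fell by 0.84 and RPL13A by 0.54 on the log2 scale. The groups of RPS3A and RPS27 did not overlap. Of the reads of RPS3A and its pseudogenes 66.7% sat in the pseudogenes in βWT, and summed with them RPS3A changed by -0.59 and still passed. Summed with its pseudogenes, RPS27 changed by -0.24 and did not pass, and RPL36A, by -0.15, turned its direction and did not pass. Of all genes tested, 33.2% passed with higher and 36.2% with lower levels in WT-HS3Δ. Of 36 assembly factors 32 rose and 1 fell, with a median of 1.01, and of 10 snoRNA host genes 8 fell, with a median of -0.64. Of 77 mitochondrial ribosomal proteins 57 rose and 5 fell, and of 14 regulators 8 rose and 1 fell.

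**Figure D2:**
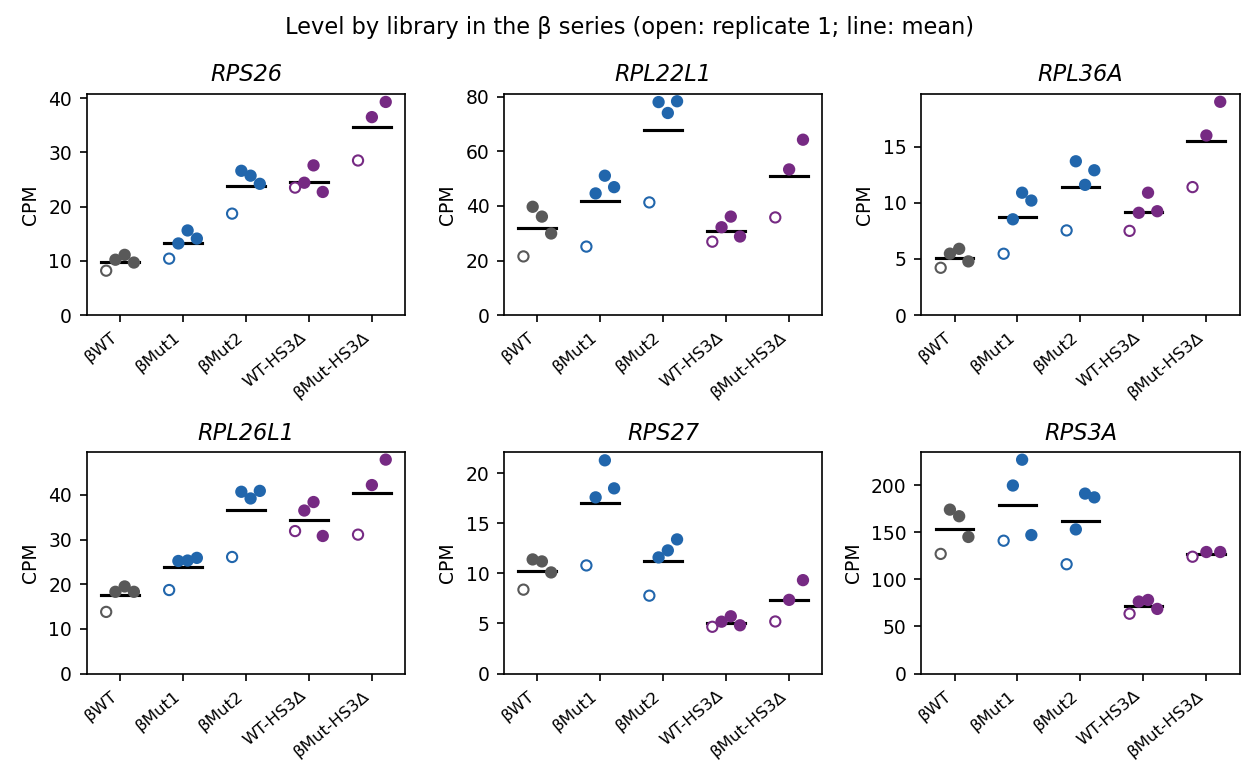
CPM (vertical, from 0) of 6 members in each library of the 5 β lines. Points are libraries, open for replicate 1, and black lines are means. RPS26 has under 12 CPM in every βWT library and over 18 in every library of βMut2 and the HS3-deleted lines, while RPS3A is under 80 CPM in the 4 WT-HS3Δ libraries alone.

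With both HS2 mutated and HS3 deleted, 25 members passed with higher and 2 with lower levels than βWT, where 32.1% and 33.3% of all genes tested did so. Without βMut-HS3Δ replicate 3, 17 passed. The median was 0.22 for the members and 0.00 for all genes. RPS26, at 28.5, 36.5 and 39.3 CPM, changed most (1.85 in log2), and RPL36A and RPL26L1 changed by 1.62 and 1.23.

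WT-HS3Δ lacks the HS2 mutation of βMut-HS3Δ, and per the paper the HS3 breakpoints of these lines also differ by 5 base pairs. In βMut-HS3Δ against WT-HS3Δ, 22 members passed with higher levels and none with lower, where 15.5% and 15.6% of all genes tested did so, with medians of 0.31 and 0.01. This count depended on single libraries. It was 1 without βMut-HS3Δ replicate 3, 5 without replicate 2, 46 without replicate 1, 3 without WT-HS3Δ replicate 1 and 5 without WT-HS3Δ replicate 4. Between replicates of equal number, the sum of the members in βMut-HS3Δ was 1.17 to 1.24 times that in WT-HS3Δ. RPS3A, at 124, 129 and 129 CPM in βMut-HS3Δ, had the largest change (0.81 ± 0.17, edgeR adjusted p = 0.00161), and RPL36A, RPL34 and RPL22L1 followed at 0.73, 0.72 and 0.70.

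The interaction, the change with the HS2 mutation where HS3 is deleted minus that where it is present, tested whether the mutation acts alike in both settings. The HS2 mutation alone was represented by βMut1, and βMut2 was not used. No member passed with a positive and 1 with a negative difference, where 9.04% and 8.47% of all genes tested did so. The median was -0.11 for the members and -0.01 for all genes. RPL13, a large subunit protein encoded near the end of 16q, had 540.4 to 581 CPM in βWT, 614 to 691 in βMut1, 595 to 693 in WT-HS3Δ and 551 to 595 in βMut-HS3Δ. It was above the unedited range with either change alone, and overlapped that range with both. The difference was -0.40 ± 0.11 (edgeR adjusted p = 0.0137). The other genes within 5 Mb of RPL13 had a median of -0.39 in the same interaction.

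αMut1 and αMut2 were compared with αWT to ask which genes differ where HS-40 has lost its G4. In αMut1, 15 members passed with lower levels than αWT and none with higher, where 21.6% and 21.8% of all genes tested did so, and 67 did not pass. The medians were -0.09 for the members and -0.03 for all genes. Past 0.5 were 4 members, among them RPS15A at -0.55 ± 0.21 (edgeR adjusted p = 0.0315), RPL39 at -0.55 ± 0.23 (0.0468) and RPL22L1 at -0.51 ± 0.12 (0.00103), where 7.35% of all genes tested were lower past it. Within numbers 1 to 4, 2 members were higher and 11 lower, where 59.2% of all genes passed in either direction, and within 5 to 8, 3 were higher and 24 lower, where 53.8% did. Over all numbers, of 36 assembly factors 31 fell, with a median of -0.45, and of 77 mitochondrial ribosomal proteins 46 fell.

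αMut2, the other clone, had 1 member higher and 2 lower, where 11.6% and 13.0% of all genes tested passed. Against αWT of the numbers 1 to 4 alone, 3 were higher and none lower, where 29.5% of all genes passed. The lower members over all numbers included RPL36A at -0.76. Without αMut2 replicate 2, 3 or 4, only 1 member passed. The median of the members was 0.03. Both lower members were past 0.5, where 9.43% of all genes tested were lower past it. The αMut2 libraries carry the numbers 1 to 4, and against αWT of those numbers the value of RPL36A was -0.35 (edgeR adjusted p = 0.197). αMut1 and αMut2 were set against the same αWT libraries, and a difference between the clones was not tested here.

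The αRes clones were compared with αWT and with αMut1 to ask which genes differ once a MYC G4 stands in HS-40. In αRes2, 52 members passed with higher and 4 with lower levels than αWT, where 19.3% and 19.3% of all genes tested did so, and the medians were 0.27 and -0.02. Past 0.5 were 6 higher members, against 12.0% of all genes, 2 without replicate 3 and none with log2 depth as a covariate. Within numbers 1 to 4, 37 were higher and 3 lower, where 53% of all genes passed, and within 5 to 8, 54 were higher and 12 lower, where 57.2% did. RPS28, a small protein near the exit of the message, changed most, at 1.21 ± 0.24 (edgeR adjusted p = 9.1e-05). It had 42.1, 53.5, 317, 95.2, 54.1, 53, 53.6 and 56.4 CPM in the 8 αRes2 libraries and 31.1 to 46 in αWT (median 36.8). Of the reads of RPS28 and its pseudogenes 79.8% sat in the pseudogenes in αWT. The values of 317 and 95.2 came from replicates 3 and 4, and RPL26 was highest in the same libraries, at 300.0 and 149 CPM, with 62.2 to 98.3 in αWT.

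αRes2 replicate 3 had 4270215 counts, the fewest of all libraries, while replicate 4 had 29689209, among the most of αRes2. The αRes2 libraries had a median of 14514878 against 32623318 in αWT. With log2 depth as a covariate, added after the data were seen, 6 members passed in place of 56, where 19.5% of all genes passed in either direction. RPS28 had a log2 fold change of 0.40 and RPL26 of 0.33, and neither passed. Without replicate 3, 56 members passed, RPS28 changed by 0.63 and RPL26 by 0.54, and both passed. RPS29 changed by 0.60 in all libraries, but its value was 0.32 without passing when replicate 3 was left out, and -0.01 within numbers 5 to 8. Against αMut1, the parent of the clone, 57 members passed with higher and none with lower levels in αRes2 (8.37% and 10.5% of all genes), and 34 passed with depth as a covariate. Within the numbers all that passed against αMut1 were higher, 46 in 1 to 4 and 67 in 5 to 8, where 38.7% and 34.6% of all genes passed.

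αRes1 had 12 members higher and 9 lower than αWT, where 21.1% and 18.6% of all genes tested passed, with a median of 0.07. Past 0.5, 3 members fell, RPL39 and RPL36A among them, where 7.41% of all genes tested were lower past it. Within numbers 1 to 4, 8 members were higher and 1 lower, where 35.2% of all genes passed, and within 5 to 8, 31 were higher and 21 lower, where 66.9% did. RPL36A, at -0.66, turned to 0.17 without passing once its pseudogenes were added. Against αMut1 1 member passed with higher levels and none with lower, where 1.57% and 3.48% of all genes tested did so, and within the numbers 21 were higher and 3 lower in 1 to 4 and 24 higher and 4 lower in 5 to 8, where 54.9% and 46.8% of all genes passed. αRes3 had 12 members higher and 17 lower than αWT (27% and 29.1% of all genes), with a median of 0.00, and 19 and 18 members passed without its replicates 2 and 4. Against αMut1, 5 were higher and 7 lower in αRes3 (15.9% and 15.6% of all genes), and without αRes3 replicate 2, 3 or 4 the count was 6, 7 or 5. Against αMut1 of the numbers 1 to 4 alone, 14 were higher and 10 lower in αRes3, where 56.2% of all genes passed.

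The members that fell in αRes3 and αRes4 included RPS4X and RPL10, on the X chromosome. Every library of these clones is among the 16 that count pseudoautosomal genes and no αWT or αMut1 library is, so that difference and the clone cannot be told apart in these comparisons. RPS4X, a small subunit protein, had 505 to 671 CPM in αWT (median 612), 421, 399, 400.3 and 442 in αRes3 and 376, 367, 364 and 359 in αRes4, without overlap. Its log2 fold changes were -0.53 ± 0.09 and -0.72 ± 0.09 (edgeR adjusted p = 2.41e-06 and 7.18e-09). RPL10, which sits by the peptidyl transferase center, had 273 to 352 CPM in αWT (median 306), 168 to 185 in αRes3 and 175 to 184 in αRes4 (-0.82 ± 0.15 and -0.78 ± 0.15, edgeR adjusted p = 2.44e-05 and 4.58e-05).

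RPL39 changed by -1.35 ± 0.29 and -0.93 ± 0.28 and RPL36A by -1.67 ± 0.26 and -0.40 ± 0.24 in αRes3 and αRes4, the last of which did not pass. Summed with pseudogenes, RPL36A in αRes3 (-0.18) and RPL39 in αRes4 (-0.08) no longer passed. Other genes around these members moved with them in part. The 97 other tested genes within 5 Mb of RPL10 had medians of -0.74 and -0.71 in αRes3 and αRes4, the 45 around RPL39 had -0.78 and -0.88, the 68 around RPS4X -0.20 and -0.24, and the 48 around RPL36A -0.14 and -0.23. All 744 other tested genes of the X chromosome had medians of -0.36 and -0.18. Whether copies of the X chromosome differ between the clones was not tested.

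**Figure D3:**
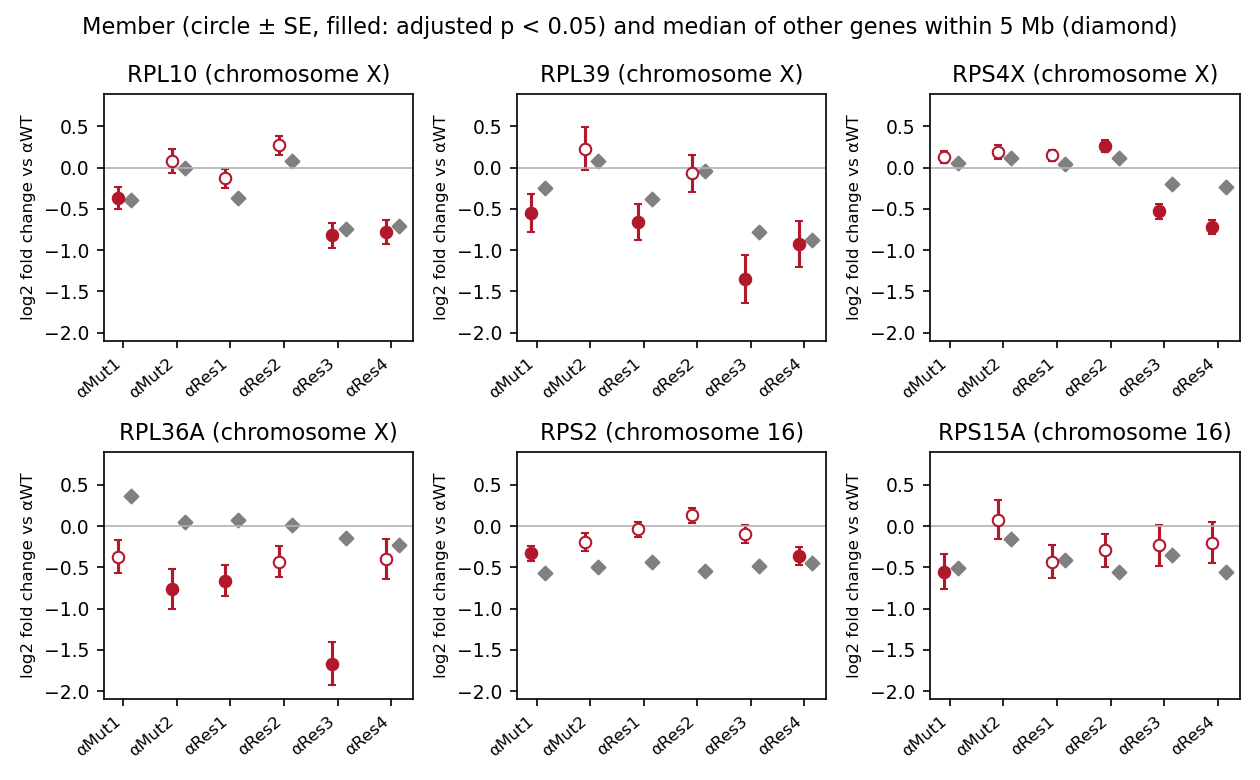
Log2 fold change against αWT (vertical) of 4 members on the X chromosome and 2 on 16p in the 6 edited α clones. Circles give the member ± SE, filled where the adjusted p is below 0.05, and diamonds the median of the other tested genes within 5 Mb. RPL10 lies at -0.82 and -0.78 and its neighbours at -0.74 and -0.71 in αRes3 and αRes4, while RPL36A lies below its neighbours in every clone.

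On 16p, which also carries the α-globin locus, RPS2 is encoded at chr16:1962058-1964841 and RPS15A at chr16:18781295-18790383. The other genes within 5 Mb had medians of -0.57 and -0.51 in αMut1, -0.54 and -0.55 in αRes2 and -0.45 and -0.55 in αRes4. In αMut2, the other mutant clone, these medians were -0.49 around RPS2 and -0.16 around RPS15A. RPS2 passed in αMut1, at -0.33 ± 0.09 (edgeR adjusted p = 0.00343), but at -0.13 did not within numbers 5 to 8 (0.195). It also passed in αRes4, at -0.36 ± 0.11 (0.00522), and had 0.13 in αRes2 without passing. RPL13, at the other end of the chromosome, was higher in αRes2 at 0.40 ± 0.10 (edgeR adjusted p = 0.00185) and in αRes3 at 0.43 ± 0.12 (0.00364). On 11p, where the β-globin locus lies, RPLP2, RPL27A and RPS13 passed in βMut1 and βMut2 at 0.37 to 0.70, while their neighbours had medians between -0.08 and 0.16.

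In αRes4, 35 members passed with higher and 6 with lower levels than αWT, where 29.2% and 29.2% of all genes tested did so, with medians of 0.22 and 0.01. The counts were 18 and 7 with log2 depth as a covariate (51.9% of all genes in either direction) and 14 and 7 without a filter on low counts. The sum of the members was 1.12 times αWT on the TMM scale and 1.23 times as a share of all counts. RPS27 had 5.23 to 10.7 CPM in αWT (median 6.75) and 9.79 to 13.8 in αRes4 (0.75 ± 0.17, edgeR adjusted p = 0.000212), ranges that overlap. RPS27L had 44.9 to 54 CPM in αWT and 62.7 to 89.9 in αRes4 (0.69 ± 0.11, edgeR adjusted p = 1.49e-06), without overlap. RPL7L1 fell by 0.67 on the log2 scale (adjusted p = 4.34e-07), from a median of 344 to 215 CPM. Mitochondrial transcripts were also high in αRes4, at 32043 ± 12316 CPM (SD, n = 4) against 11132 ± 3098 in αWT (SD, n = 8), and their part in the result was not tested. Against αMut1, 40 members were higher and 3 lower in αRes4 (24.7% and 24.6% of all genes), with RPS27, RPS26 and RPS3A among the largest changes of the higher. Against αMut1 of the numbers 1 to 4 alone, 46 were higher and 5 lower, where 65.9% of all genes passed.

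The unedited lines of both series were also compared. In αWT, 68 members passed with lower and 5 with higher levels than βWT, where 32.6% and 33.4% of all genes tested did so, and the medians were -0.54 for the members and 0.02 for all genes. Past 0.5 were 50 lower and 3 higher members, against 23.1% and 25.0% of all genes. RPS3A had 35.4 to 70.4 CPM in αWT and 127 to 174 in βWT (-1.63 ± 0.15, edgeR adjusted p = 3.93e-07), RPS15A changed by -1.34 ± 0.23, and RPL24 and RPS18 changed by -1.22 each.

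The 3 higher members past 0.5 included RPL36A at 1.68 and RPS26 at 1.05. RPS26 had 18.2 to 26.5 CPM in αWT (median 20.1) and 8.18 to 11.1 in βWT, without overlap. RPL36A turned to -0.38 (edgeR adjusted p = 0.00123) when summed with its pseudogenes. Of all genes tested, 33.4% passed with higher and 32.6% with lower levels in αWT. Assembly factors were higher in αWT in 27 of 36 cases and lower in 4, with a median of 0.66, and 14 of 17 TOP messages of translation factors were lower. αWT and βWT belong to separate series, and what else separates these series, in culture or library preparation, cannot be told apart from the cells.

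The 29 tested members with under 10% of reads in pseudogenes in αWT had medians of 0.48 in βMut1, 0.53 in βMut2, 0.01 in WT-HS3Δ and -0.52 in αWT against βWT, and 0.29 in αRes4 against αWT. The 24 with over 50% had 0.42, 0.44, -0.16, -0.58 and 0.14. In αRes4, 20 of the former passed with higher and 1 with lower levels, and 5 and 3 of the latter. Of all genes tested, 29.2% passed each way. Members of the large and the small subunit had medians of 0.41 and 0.49 in βMut1, 0.39 and 0.54 in βMut2, and 0.16 and 0.29 in αRes4.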

How the data were processed

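Directional RNA-seq libraries of K562 lines were read as 51-base pairs. Per the study's methods, the authors ran cutadapt (quality 20), bwa mem on hg38, SAMtools 1.15.1 and Picard deduplication, and then featureCounts with GENCODE 42. What they deposited are whole-number counts per gene, not normalized. Neither strand nor multimapping settings are given in the sources used here. Deduplication removes more reads from abundant messages in deeper libraries, and reads of overlapping or copied genes may be split.

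Lines were taken from sample titles. Gene names and positions are from GENCODE 44 (hg38). Each series was fitted with edgeR 4.0.16 in R 4.3.3 (TMM scaling, quasi-likelihood test, Benjamini-Hochberg over all genes with a mean of at least 10 counts), as were the 12 unedited libraries. CPM are on 1 TMM scale over all 62 libraries. The common biological coefficient of variation was 20.3% (α), 11.4% (β) and 16.4% (unedited). The fit was tested on simulated data. Of genes given a log2 change of 0.5, it recovered 53.1% (βMut1 against βWT), 37.8% (αMut1 against αWT) and 35.4% (αWT against βWT). Of genes given a change of 1, it recovered 87.9%, 88% and 72.9%. A member that did not pass may thus still differ. Members and lists were chosen with earlier results of these data known. Named members are the paralogs and their partners, RPL5, RPL11, RPLP0 to RPLP2, RPSA, RPS19, RPS14, members on chromosome 16 and 11p, up to 4 largest changes each way per comparison, the extremes of level and any member passing in the interaction. Other names were chosen after their values were seen. No library was removed. No libraries were duplicates. Replicate numbers were checked for pairing, taken as a correlation of deviations over 0.1 in every pair. Only αRes2 with αMut1 met this (0.125 to 0.256). Against βWT the correlations ran from 0.076 to 0.55 in βMut1, 0.089 to 0.51 in βMut2 and 0.071 to 0.563 in βMut-HS3Δ. In WT-HS3Δ they ran from -0.121 to 0.313. The reported fits took no account of replicate numbers. Distances between sets of replicate numbers (mean log2 CPM with a pseudocount of 0.5) and a fit with log2 depth were added after the data were seen. Other alternatives were DESeq2 1.42.0, its size factors, no filter, TMM without the members, pseudogenes summed, a replicate block, single sets of numbers and leaving out libraries. Results for a few genes are not reported here.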

Additional observations from a re-analysis of the deposited data

Results flagged for a closer look

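In 220 groups of 4 to 8 libraries (the sum and 19 members in 11 lines), 22 values stood far from the rest of their line by Dixon's test, which chance gives in about 1 of 20 groups. The members share libraries, so these are not independent.

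Of these, 6 fell on αWT replicate 8, which was highest for RPS26 (26.5 CPM, the others 18.2 to 21.1), RPL36A (30.5, the others 11.9 to 18.3), RPS27 (10.7, the others 5.23 to 6.97), RPS27L (54, the others 44.9 to 48.9), RPL22L1 (39.8, the others 26.4 to 31) and RPS29 (99.2, the others 58.1 to 73.8).

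αRes2 replicate 3, the shallowest library, was highest for RPS28 (317 CPM, the others 42.1 to 95.2), RPL26 (300.0, the others 65.1 to 149), RPS29 (251, the others 64.4 to 139.9) and RPL39 (37.7, the others 9.75 to 22).

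βMut2 replicate 1 was lowest for RPL26L1 (26.1 CPM, the others 39.2 to 40.9), RPL22L1 (41.3, the others 74.1 to 78.4), RPL39L (47.4, the others 67.6 to 69.2) and RPS29 (131, the others 234 to 254) and highest for RPL7L1 (331, the others 249 to 263). βMut1 replicate 1 was lowest for RPL26L1 (18.7, the others 25.2 to 25.9).

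αMut2 replicate 1 had the lowest sum of members (19473 CPM, the others 23769.7 to 24206). αMut2 replicate 3 was highest for RPL26 (167, the others 66.1 to 75.1) and replicate 4 for RPS27L (58.5, the others 54.3 to 54.7). αMut1 replicate 7 was lowest for RPS29 (48.2, the others 56.9 to 62.9), αRes3 replicate 1 for RPS18 (191, the others 212 to 214), and αRes4 replicate 2 was highest for RPL36A (17.8, the others 10.7 to 11.2).

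RPL13 differed in the interaction of HS2 mutation and HS3 deletion, by -0.40 on the log2 scale (edgeR adjusted p = 0.0137).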

How the results depend on the processing

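Counts of passing members kept within 1.5 times of the reported value under most alternatives. With log2 depth as a covariate, added after seeing the data, they were 23 in αMut1 (15 as reported), 5 in αMut2 (3), 13 in αRes1 (21), 6 in αRes2 (56) and 25 in αRes4 (41) against αWT, and 34 in αRes2 against αMut1 (57). Without a filter on low counts they were 13 in αRes1, 21 in αRes4 and 42 in βMut-HS3Δ against the unedited lines (27 as reported in the last). Summed with pseudogenes, 1 member passed in αMut2 against αWT and 2 in αRes1 against αMut1, and DESeq2 gave 4 in the latter (1 as reported). Within replicate numbers 1 to 4 the counts were 9 in αRes1 against αWT, 24 in αRes1 against αMut1 and 24 in αRes3 against αMut1, and within numbers 5 to 8 they were 27 in αMut1 and 52 in αRes1 against αWT and 28 in αRes1 against αMut1. Numbers 5 to 8 could not be used for αMut2, αRes3, αRes4 or αWT against βWT, and leaving out the shallowest library did not concern αWT against βWT.

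With a replicate block, 1 member passed in αMut2 against αWT, 3 in αRes1 and 27 in αRes3 against αMut1, 45 in WT-HS3Δ and 54 in βMut-HS3Δ against βWT, 72 in βMut-HS3Δ against WT-HS3Δ and 6 in the interaction. Of all genes, 77.1%, 74.2%, 52% and 31.2% passed in the last 4 of these. Outside αRes2 against αMut1, whose count stayed within 1.5 times, the numbers did not pass the check of pairing. Single pairs of β libraries still correlated at up to 0.563. Leaving out single libraries gave 1 to 4 members in αMut2 and 18 to 22 in αRes3 against αWT, 5 to 8 in αRes3 against αMut1, 29 to 76 in βMut1 and 17 to 35 in βMut-HS3Δ against βWT, 1 to 46 in βMut-HS3Δ against WT-HS3Δ and 1 to 2 in the interaction. The summed level of αRes4 was 1.23 times αWT as a share of counts and 1.12 on the TMM scale. The cause of these shifts was not tested.

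Changes of direction were those of RPL36A summed with its pseudogenes (0.17 in αRes1 and -0.38 in αWT against the unedited line of comparison, and -0.15 in WT-HS3Δ against βWT), of RPL22 in βMut2 summed likewise (0.16) and of RPS29 in αRes2 with numbers 5 to 8 (-0.01). For the members of largest change and the medians, 1061 values kept their direction and side of the threshold. Of the others, 41 no longer passed, 4 changed direction and 1 moved. RPL22 in βMut2 is outside this count. At this depth RPL10L and RPL3L could not be tested.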
